A study of Mus musculus with 20 samples.

Results

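Solute carriers are membrane proteins that move small molecules across the plasma membrane and the membranes of lysosomes, mitochondria and other organelles. They were taken here as the protein-coding genes whose symbol starts with Slc, a family number, the letter a and a member number, without Slc2a1, Slc16a3, Slc1a2 and Slc1a3. The members were chosen by a measured value: a gene was kept where it reached 1 CPM (the count divided by the library's total count, times 1e6) in at least 3 of the 20 libraries. All CPM values below, other than those set against such a threshold and the limits for a count of 0, use library sizes scaled by TMM factors. This gave 183 genes of 342 protein-coding genes with such a symbol, in a table of 55487 gene identifiers. Of the 183, 179 carry exactly a family and a member number. The other 4 (Slc9a3r1, Slc9a3r2, Slc4a1ap and Slc7a6os) are named after carriers and are not carriers themselves. A threshold of 2 CPM would have kept 171 genes and one of 0.5 CPM 194. Just inside it, the value of the library that decided was 1.09 CPM for Slc25a18 and 1.15 CPM for Slc27a3, and just outside it 0.98 CPM for Slc25a47 and 0.917 CPM for Slc4a8. In 148 members all 20 libraries reached 1 CPM, 20 did so in 10 to 19 libraries and 15 in 3 to 9. Slc10a6, Slc13a2, Slc25a18 and Slc25a31 reached it in 1 genotype only, and Slc26a10, Slc27a3, Slc4a3 and Slc5a11 under 1 region label only. All 183 passed the filter on low counts used for the tests.

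The libraries are bulk RNA sequencing of microglia, the resident macrophages of the brain. Offspring carried a Cre recombinase that tamoxifen switches on, placed at the fractalkine receptor gene (Cx3cr1-CreER), and a Braf allele that makes the constitutively active V600E kinase once Cre has acted (Braf LSL-V600E). Pregnant females received 1 injection of 37.5 mg per kg 4-hydroxytamoxifen at embryonic day 9.5. Each of 10 mice gave 1 library labelled cortex and 1 labelled brainstem. The 3 control mice at 2 months were Braf WT; CX3 HET and the 3 mutant mice Braf VE; CX3 HET. At the stage called end-stage in the labels, both mutant mice were Braf VE; CX3 HET. Of the end-stage controls, M1521 was Braf WT; CX3 HET and M1375 was Braf VE; CX3 WT, which carries the Braf allele without the Cre. Every mouse but M1375 therefore has 1 altered copy of Cx3cr1. Because Cre is driven by a gene that other macrophages also use, the allele need not be limited to microglia.

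The labels conflict in 2 ways that bear on all results. For 4 of the 6 mice at 2 months the genotype given by the sample record differs from the genotype that goes with the mouse number in the count column. The mouse number is used here, which makes M2617, M2621 and M2624 the 2-month mutants, and counts by the sample record are given beside the results. Counts per gene do not separate the V600E allele from the other, so the allele itself was not checked; sums of marker genes under the mouse-number reading are given after the genotype results. The summed level of 6 Hox transcripts, which mark brainstem and not cortex, was 0.327 to 3.49 CPM in the libraries labelled cortex and 0.108 to 1.13 CPM in those labelled brainstem, so the text writes cortex-labelled and brainstem-labelled and takes neither label as the tissue. Library totals were 9.4e6 to 21.2e6 counts. A gene with 0 counts could still have had up to 0.142 to 0.319 CPM, depending on the library's depth (3 counts, counting error only). The summed level of 10 microglial markers was 43000 to 78000 CPM. In bulk RNA, fewer cells of a type and less RNA per cell cannot be told apart.

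Macrophages depend on these proteins for nutrients and for defence. Heteromeric amino acid transporters pair a light chain of the Slc7 family with the heavy chain Slc3a2 and feed the mTORC1 growth pathway with leucine and glutamine. Metal carriers withhold iron, manganese and zinc from microbes in the phagosome, recycle iron from engulfed cells, and hand iron to mitochondria for haem and iron-sulphur clusters. Carriers of the Slc25 family sit in the inner mitochondrial membrane, and a few sugar transporters, among them the fructose transporter Slc2a5, mark microglia within the brain.

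The 183 members together held 1.19% to 1.48% of the counts of a library (mean 1.31%, n = 20). Levels between genes are compared below as CPM per kilobase of exon, averaged over all libraries. The 10 highest members held 47.2% of the summed level of 3410 CPM per kilobase. The highest was Slc25a5, an ADP/ATP exchanger of the inner mitochondrial membrane, at 350 CPM per kilobase. Slc25a5 has near-identical copies in the genome, so its value is uncertain. Slc2a5 followed at 310 CPM per kilobase, then Slc3a2 at 187, the phagosomal iron and manganese exporter Slc11a1 at 144, and the mitochondrial carriers Slc25a45 at 137 and Slc25a11, which exchanges oxoglutarate for malate, at 120. Next in order were Slc50a1 at 97.9, the neutral amino acid transporter Slc7a8 at 90.5, the lysosomal carrier Slc46a3 at 87.7, the lysosomal nucleoside carrier Slc29a3 at 84.1, the folate and haem carrier Slc46a1 at 76.7 and Slc7a7, a light chain for basic amino acids, at 76 CPM per kilobase.

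High carriers differed in how steady they were across libraries. Slc2a5 ranged from 221 to 2220 CPM over the 20 libraries, with a median of 1030 CPM, whereas Slc29a3 ranged from 396 to 597 CPM. Among the 148 members at 1 CPM or more throughout, the highest library exceeded the lowest by a median of 2.44-fold. This ratio was under 2-fold for 41 of them and over 5-fold for 20. It was lowest for Slc29a3 at 1.51-fold and highest for the glucose transporter Slc2a3 at 22.8-fold.

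Grouped by what they carry, the 39 mitochondrial carriers held 27.7% of the members' summed CPM per kilobase, the 25 carriers of sugars and monocarboxylates 17%, and the 25 amino acid carriers 15.5%. The 23 metal carriers held 11.3%, the 14 carriers of vitamins, choline, lipids and haem 8.99%, and the 8 carriers of nucleosides and nucleotide sugars 7.19%. The rest was divided among 16 carriers of organic ions, peptides and drugs (4.3%, led by Slc10a3), 12 ion carriers (3.43%, led by Slc12a9), 13 proton and bicarbonate carriers (2.11%, led by the endosomal exchanger Slc9a9), 4 vesicular and lysosomal anion carriers (0.549%, led by the sialic acid carrier Slc17a5) and the 4 genes that are not carriers (1.93%). The groups follow Slc family numbers, so a family with mixed substrates stands in 1 group.

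Genotype was tested with edgeR's quasi-likelihood test over all 16595 genes, and a carrier is called where its Benjamini-Hochberg adjusted p is under 0.05. Differences are log2 of mutant over control with their standard error (SE). In end-stage cortex-labelled libraries, with 2 mutant and 2 control mice, 8 of the 183 members rose (4.37%, where 1.83% of all genes rose) and 5 fell (2.73%, where 2.18% of all genes fell). Their median difference was 0.05, and that of all genes 0.02. In 2-month cortex-labelled libraries, with 3 and 3 mice, 10 members rose (5.46%, background 3.64%) and 4 fell (2.19%, background 1.81%), and the medians were 0.05 and -0.01. Between 2 groups of 2 mice the groups did not overlap in 55.2% of the members and in 49.1% of all genes tested, and between 2 groups of 3 mice in 29.5% and 24.7%.

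**Figure D1:**
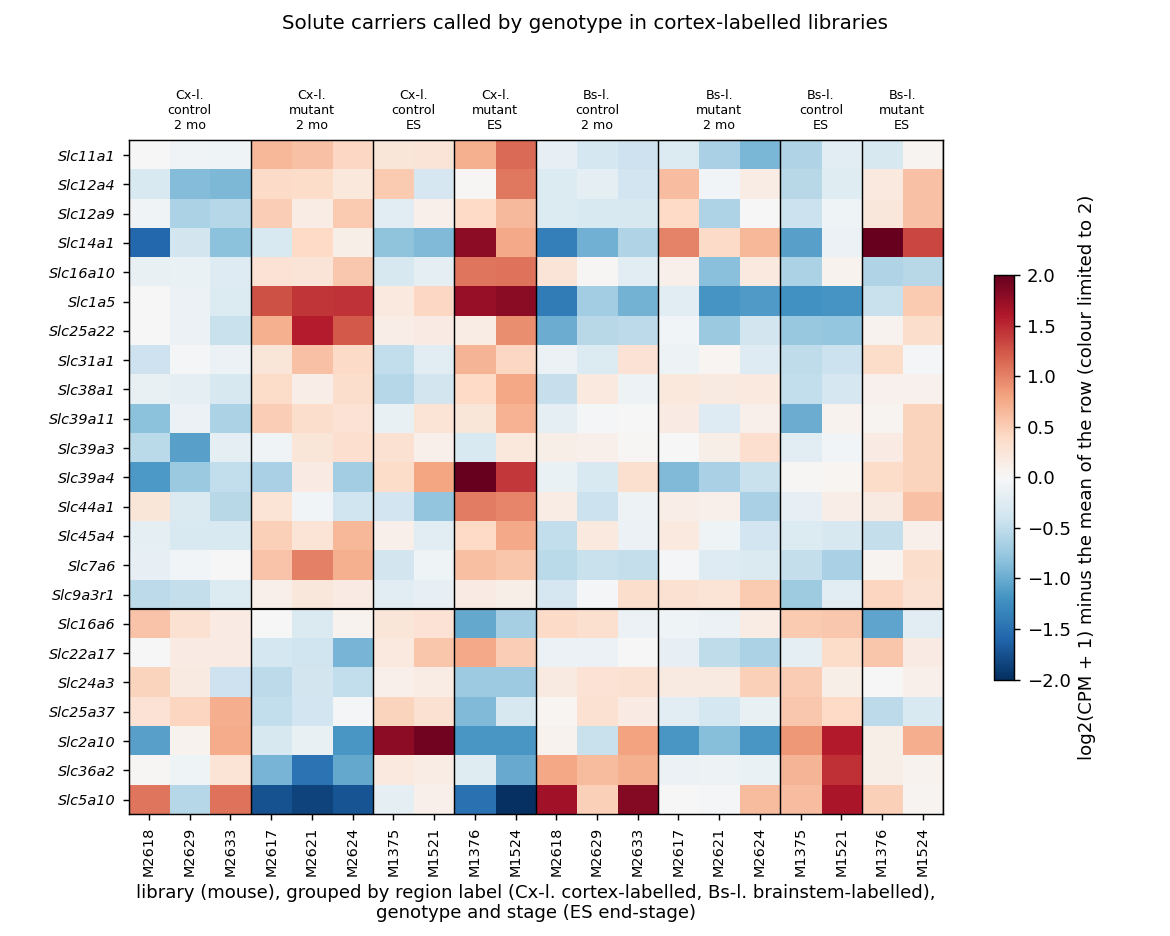
Heat map of the 23 members called by genotype in cortex-labelled libraries at either stage, 1 column per library and 1 row per gene, as log2(CPM + 1) minus the row's mean; genes above the black line were called higher and those below it lower. Slc1a5 and Slc7a6 are high in all 5 cortex-labelled mutant libraries, and Slc5a10 is low in all 5.

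**Figure D2:**
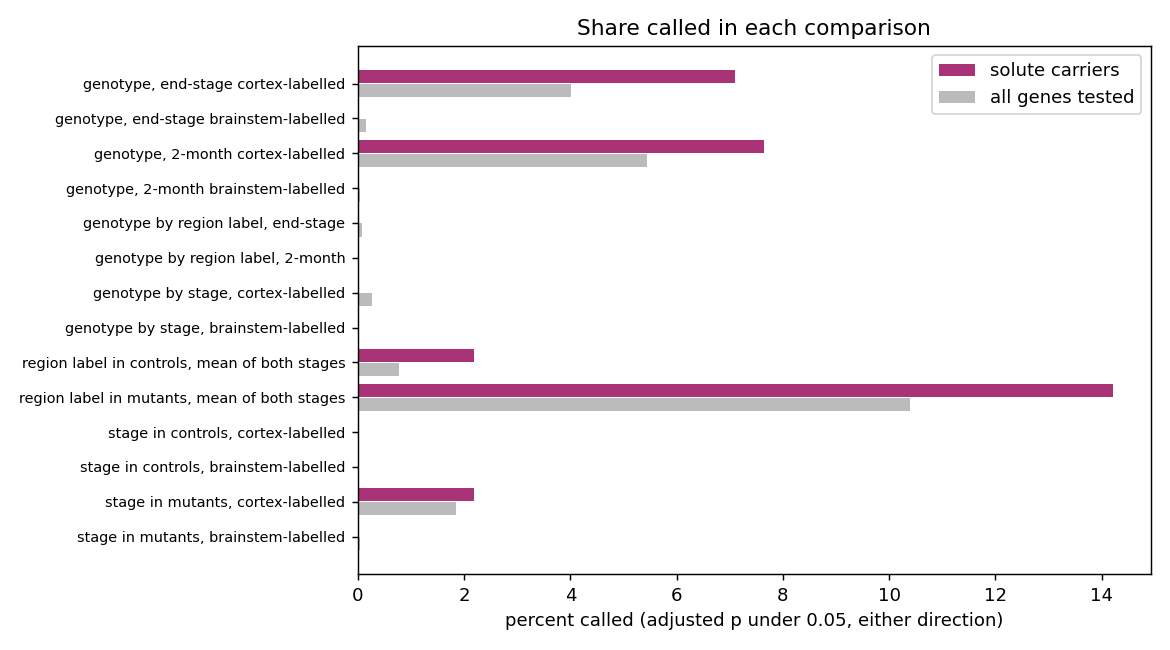
Percent of the 183 members (purple) and of all 16595 genes tested (grey) called in each of 14 comparisons, in either direction. The members' bars are longest for region label in mutants and for the 2 cortex-labelled genotype comparisons, and in 9 comparisons no member was called.

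Slc1a5, Slc7a6, Slc5a10 and Slc25a37 were called in both cortex-labelled comparisons, each in the same direction. They are 30.8% of the 13 members called at end-stage and 28.6% of the 14 called at 2 months. The 2 comparisons share no mouse. They share 1 estimate of the spread, and the second rests on the genotype that goes with the mouse number.

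Slc1a5 (ENSMUSG00000001918.17, chr7:16781340-16798274, plus strand, GRCm38) exchanges neutral amino acids and is a main route of glutamine uptake. At end-stage its cortex-labelled level was 54.1 and 56.1 CPM in the mutants and 17.8 and 20.9 CPM in the controls. At 2 months it was 38.7, 43.1 and 43.6 CPM in the mutants and 15.4, 14.1 and 12.6 CPM in the controls. Every cortex-labelled mutant library was above every cortex-labelled control library of both stages. The difference was 1.51 (SE 0.36, adjusted p = 0.0236) at end-stage and 1.58 (SE 0.29, adjusted p = 0.00395) at 2 months.

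Slc7a6 (ENSMUSG00000031904.5, chr8:106168857-106198706, plus strand) is a light chain that pairs with Slc3a2 and exchanges basic for neutral amino acids. Its cortex-labelled level was 36.4 and 35.3 CPM in end-stage mutants against 18.2 and 22.3 CPM in controls. At 2 months it was 35.6, 48.7 and 39.3 CPM in mutants against 21, 22.9 and 23.9 CPM in controls. Mutant and control libraries did not overlap at either stage. The differences were 0.82 (SE 0.21, adjusted p = 0.0321) and 0.87 (SE 0.17, adjusted p = 0.00495). Its heavy chain Slc3a2 differed by 0.09 (SE 0.21, adjusted p = 0.875) and -0.01 (SE 0.17, adjusted p = 0.993), which did not pass.

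Slc5a10 (ENSMUSG00000042371.12, chr11:61672781-61720826, minus strand) is a sodium-coupled transporter of mannose and fructose. It was low throughout, and in the cortex-labelled mutants it was close to the limit of detection, at 0.491 and 0 CPM at end-stage and 0.244, 0.154 and 0.257 CPM at 2 months. Controls had 2.65 and 3.49 CPM at end-stage and 7.82, 1.8 and 7.86 CPM at 2 months. No mutant library reached the lowest control library. The differences were -3.55 (SE 0.93, adjusted p = 0.0401) and -4.69 (SE 0.78, adjusted p = 0.00193). The end-stage call was kept in 2 of the 10 fits that leave out 1 mouse, and that difference ran from -8.69 to -2.64. Of its exon bases, 16.6% lie within exons of Fam83g on the other strand, and the sources used here do not say whether counting used strand.

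Slc25a37 (ENSMUSG00000034248.7, chr14:69241848-69285112, minus strand) brings iron into mitochondria. Its cortex-labelled level was 23.5 and 35.4 CPM in end-stage mutants and 61 and 55 CPM in controls, and 31.3, 33.6 and 43.4 CPM in 2-month mutants and 54.4, 60.3 and 73.8 CPM in controls. The mutant libraries of both stages lay below all controls. The differences were -0.98 (SE 0.22, adjusted p = 0.0165) and -0.80 (SE 0.18, adjusted p = 0.0118).

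**Figure D3:**
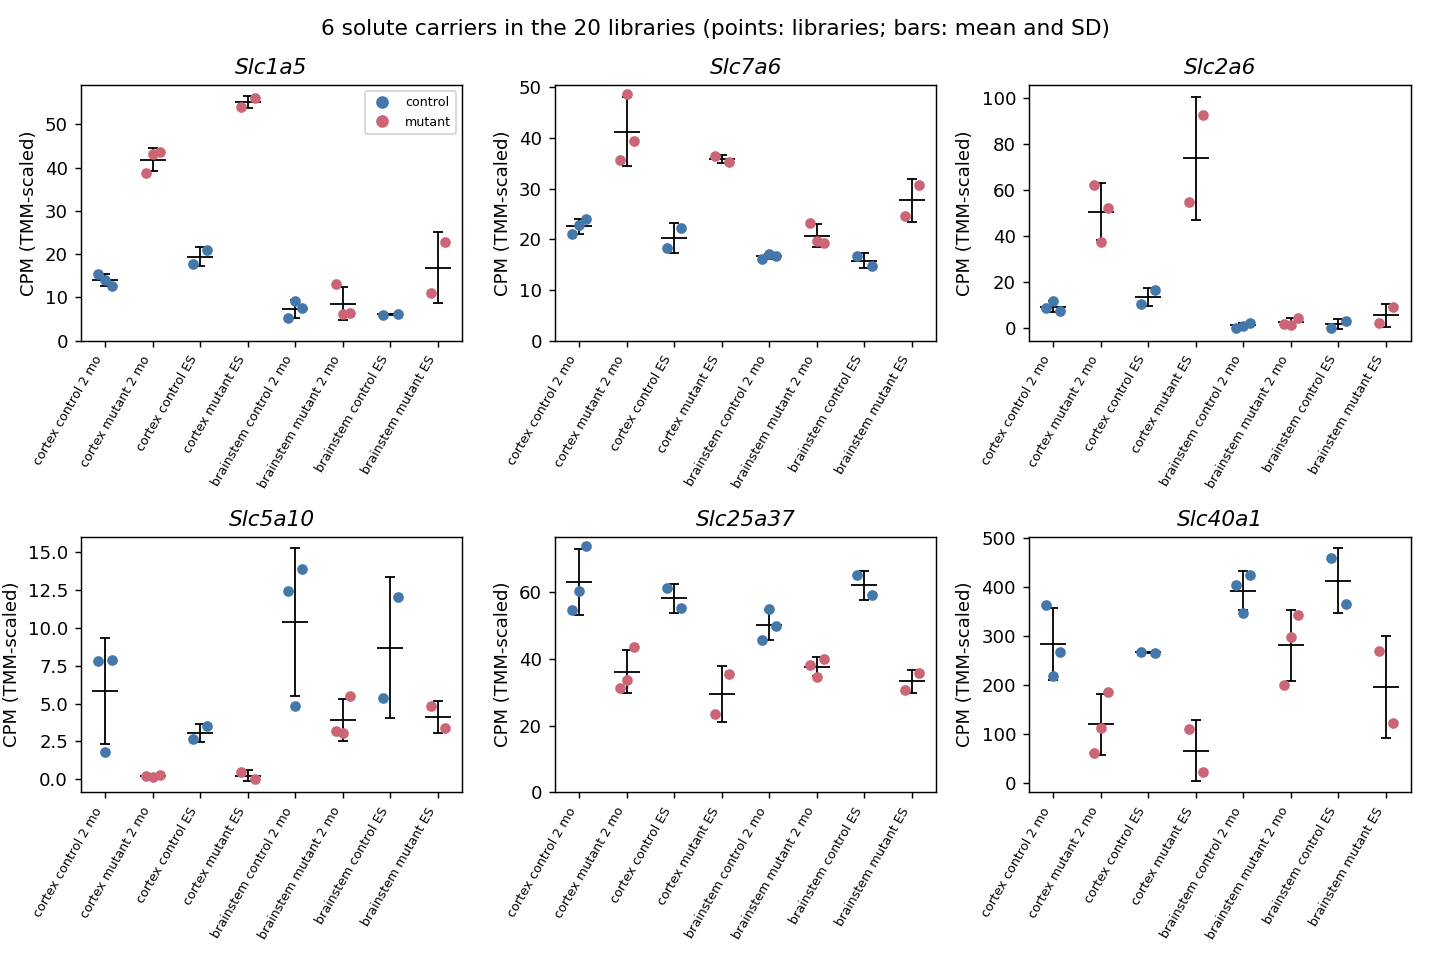
CPM (TMM-scaled) of 6 carriers in every library, by region label, genotype and stage (ES is end-stage); points are libraries and bars the mean and SD of 2 or 3 mice. In cortex-labelled libraries Slc1a5, Slc7a6 and Slc2a6 sit higher in mutants at both stages and Slc5a10, Slc25a37 and Slc40a1 lower; of these, Slc2a6 and Slc40a1 were not called by genotype.

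The start of each called carrier was looked up in a RefSeq table of mouse promoters (GRCm38.p6), of which the 250 bases before the start are used. The table held 138 of the 183 members and 15 of the 23 called by genotype in cortex-labelled libraries. Of the 4 carriers called at both stages it held Slc5a10 and Slc7a6, which moved in opposite directions, and their windows are shown for that reason. Those of Slc12a9 and Slc39a3, both called higher at 2 months, are shown because they alone among the 15 held 1 of 4 motifs searched on both strands. The motifs were the AP-1 site TGACTCA (in 4.46% of 32851 promoter windows), the E-box CACGTG (6.02%), the ETS site CCGGAAGT (2.88%) and TGATGNAA, a core of the amino acid response element (3.45%). The E-box reads the same on both strands, and no window here holds more than 1 of the motifs. Each sequence runs 5′ to 3′ along the gene's strand and capitals mark a motif.
Slc5a10 (chr11:61720800-61721049, minus strand): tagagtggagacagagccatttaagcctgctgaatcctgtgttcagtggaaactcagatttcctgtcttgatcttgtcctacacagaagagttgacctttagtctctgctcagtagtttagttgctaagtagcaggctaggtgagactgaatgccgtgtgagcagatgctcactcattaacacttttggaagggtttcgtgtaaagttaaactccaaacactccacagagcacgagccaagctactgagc
Slc7a6 (chr8:106168604-106168853, plus strand): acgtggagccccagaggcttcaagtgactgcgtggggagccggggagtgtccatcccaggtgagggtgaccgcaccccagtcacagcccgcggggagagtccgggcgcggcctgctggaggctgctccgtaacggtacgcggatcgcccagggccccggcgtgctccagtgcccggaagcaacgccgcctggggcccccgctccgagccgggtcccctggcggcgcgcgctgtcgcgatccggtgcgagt
Slc12a9 (chr5:137333583-137333832, minus strand): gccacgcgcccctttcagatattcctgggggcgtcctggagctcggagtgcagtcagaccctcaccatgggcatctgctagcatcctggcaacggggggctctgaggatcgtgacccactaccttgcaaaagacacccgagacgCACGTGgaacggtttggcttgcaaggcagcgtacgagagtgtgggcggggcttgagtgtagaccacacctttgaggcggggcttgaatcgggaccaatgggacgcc
Slc39a3 (chr10:81037316-81037565, minus strand): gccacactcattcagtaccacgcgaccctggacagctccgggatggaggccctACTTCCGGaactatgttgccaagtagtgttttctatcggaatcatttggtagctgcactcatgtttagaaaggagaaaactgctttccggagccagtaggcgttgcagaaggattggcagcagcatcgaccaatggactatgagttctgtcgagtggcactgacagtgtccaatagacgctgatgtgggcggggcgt
The E-box of Slc12a9 starts 106 bases before the gene's start and the ETS site of Slc39a3 197 bases before it. The window of Slc5a10 holds 45.6% G and C and that of Slc7a6 74%. A match describes the letters of the window and is not evidence of binding.

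Amino acid carriers made up 3 of the 8 members that rose in end-stage cortex-labelled mutants, and none of the 25 fell. Beside Slc1a5 and Slc7a6, this was Slc38a1, a sodium-coupled importer of glutamine and alanine, with the smallest p of all members in this comparison. It stood at 161 and 211 CPM in the mutants and at 82.2 and 94.7 CPM in the controls, a difference of 1.07 (SE 0.19, adjusted p = 0.00414). Slc7a5, the leucine importer that pairs with Slc3a2, had 67.6 and 140 CPM in mutants and 108 and 117 CPM in controls, so its groups overlapped. The cystine importer Slc7a11 had 12.8 and 10.3 CPM in mutants and 3.6 and 2.05 CPM in controls, a difference of 2.04 (SE 0.78), which did not pass (adjusted p = 0.172). Slc7a8 differed by -0.81 (SE 0.25, adjusted p = 0.0867), Slc7a7 by -0.10 (SE 0.15, adjusted p = 0.794), and Slc7a1, an importer of arginine and lysine, by 0.28 (SE 0.55, adjusted p = 0.851).

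At 2 months, amino acid carriers gave 2 of the 10 that rose (Slc1a5 and Slc7a6) and 1 of the 4 that fell. The one that fell was Slc36a2, a proton-coupled transporter of glycine and proline, at 2.32, 1.28 and 2.11 CPM in mutants and 5.41, 4.96 and 6.61 CPM in controls (-1.57, SE 0.33, adjusted p = 0.0085). A list of amino acid stress genes, mostly targets of the transcription factor Atf4, was read beside these carriers. Of 14 tested, none rose and 1 fell at end-stage: the serine synthesis enzyme Phgdh (-1.63, SE 0.32, adjusted p = 0.00739). At 2 months the mitochondrial enzyme Shmt2 rose (1.08, SE 0.20, adjusted p = 0.00453) and none of the others passed. Atf4 itself differed by -0.11 (SE 0.23, adjusted p = 0.868) and -0.28 (SE 0.19, adjusted p = 0.46). Of 11 chaperones and adaptors of carriers, Ostm1, a partner of a lysosomal chloride exchanger, rose at end-stage (0.67, SE 0.17, adjusted p = 0.0297), and none passed at 2 months. None of 4 organic anion carriers named Slco passed at either stage. Of 14 genes of nutrient sensing at the lysosome, Mitf rose at end-stage (1.32, SE 0.32, adjusted p = 0.0271) and Rragd fell at 2 months (-4.90, SE 1.34, adjusted p = 0.0407).

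Among the 23 metal carriers, 2 rose and none fell at end-stage, and 3 rose and none fell at 2 months. The end-stage pair were the copper importer Slc31a1 and the zinc importer Slc39a4. Slc31a1 had 170 and 142 CPM in mutants and 74.8 and 90.3 CPM in controls (0.92, SE 0.21, adjusted p = 0.0209). Slc39a4 had 74.6 and 42.4 CPM in mutants and 19.8 and 27 CPM in controls (1.32, SE 0.36, adjusted p = 0.0463). At 2 months Slc11a1 rose from 504, 476 and 472 CPM in controls to 799, 751 and 666 CPM in mutants (0.61, SE 0.17, adjusted p = 0.0417). The end-stage values of Slc11a1 were 818 and 1100 CPM in mutants and 591 and 600 CPM in controls, which did not pass (0.69, SE 0.21, adjusted p = 0.0731). The zinc transporters Slc39a3 (0.76, SE 0.20, adjusted p = 0.0373) and Slc39a11 (0.88, SE 0.25, adjusted p = 0.0439) rose at 2 months. At end-stage Slc39a3 went the other way, with means of 46.1 CPM in mutants and 54.5 CPM in controls. Its genotype by stage interaction was -1 (SE 0.32, adjusted p = 0.289), which did not pass.

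Slc40a1, ferroportin, is the iron exporter of macrophages. It had 110 and 22.5 CPM in end-stage cortex-labelled mutants and 268 and 266 CPM in controls, and 61.2, 112 and 186 CPM in 2-month mutants and 364, 219 and 267 CPM in controls. All mutant libraries lay below all controls, but neither difference passed: -2.01 (SE 0.56, adjusted p = 0.0563) and -1.24 (SE 0.45, adjusted p = 0.125). Slc11a2, the importer of iron from endosomes, differed by 0.43 (SE 0.28, adjusted p = 0.453) and 0.25 (SE 0.23, adjusted p = 0.619). Of 12 genes for iron and metal handling that are not carriers, 2 rose at each stage. The ferritin heavy chain Fth1 rose at both, by 1.53 (SE 0.20, adjusted p = 0.000304) and 1.2 (SE 0.16, adjusted p = 0.000571), together with the ferritin light chain Ftl1 at end-stage (0.72, SE 0.18, adjusted p = 0.0326) and the transferrin receptor Tfrc at 2 months (1.83, SE 0.52, adjusted p = 0.0497). The haem-degrading enzyme Hmox1 and Srxn1 rose at end-stage, as 2 of 11 targets of Nfe2l2, by 1.68 (SE 0.28, adjusted p = 0.00224) and 3.20 (SE 0.56, adjusted p = 0.00355). At 2 months, Gclm, which helps make glutathione, fell (-0.58, SE 0.16, adjusted p = 0.0421).

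Of 25 carriers of sugars and monocarboxylates, 1 rose and 3 fell at end-stage, and 1 rose and 1 fell at 2 months. Slc16a10, which carries aromatic amino acids despite its family, had 21.7 and 21.9 CPM in end-stage mutants and 7.63 and 8.49 CPM in controls (1.43, SE 0.35, adjusted p = 0.0291). Slc16a6 fell, with 92.7 and 120 CPM in mutants and 224 and 232 CPM in controls (-1.10, SE 0.24, adjusted p = 0.0154). Exons of Amz2 on the other strand cover 21.5% of its exon bases. Slc2a10 had no count in either mutant library and 6.78 and 7.53 CPM in the controls (adjusted p = 0.0236). Against 3 counts over both mutant libraries, it was at least 80.5-fold lower. At 2 months the same gene had 0.794, 1.03 and 0 CPM in mutants and 0.0547, 1.35 and 2.77 CPM in controls, which overlapped.

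Slc2a5, Slc2a3, Slc2a6 and Slc2a9, sugar transporters among the members that are known in macrophages, did not pass. The glucose transporter Slc2a1 is not a member and was not looked at. Slc2a5 had 221 and 635 CPM in end-stage mutants and 1300 and 1480 CPM in controls (-1.70, SE 0.64, adjusted p = 0.165), and its 2-month groups overlapped (974, 713 and 462 CPM against 1150, 374 and 692 CPM). Slc2a3 had 28.2 and 12.6 CPM against 3.81 and 7.39 CPM (1.85, SE 0.65, adjusted p = 0.138). Slc2a6, a glucose transporter of lysosomes, had 54.7 and 92.8 CPM against 10.5 and 16.2 CPM at end-stage, and 62.3, 37.4 and 52 CPM against 8.75, 11.6 and 7.27 CPM at 2 months. All cortex-labelled mutants lay above all controls, yet with adjusted p = 0.193 and 0.0861 the differences of 2.46 (SE 0.98) and 2.46 (SE 0.80) were not called. Slc45a4 rose at 2 months, from 40.6, 37.1 and 37.3 CPM to 64.9, 56.2 and 74.3 CPM (0.77, SE 0.21, adjusted p = 0.0381).

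Mitochondrial carriers were the largest class, and 1 of 39 was called at end-stage, Slc25a37, and 2 of 39 at 2 months. The other 2-month call was Slc25a22, which imports glutamate into mitochondria. It had 69, 126 and 99.7 CPM in 2-month mutants and 42.2, 38.4 and 30.5 CPM in controls (1.41, SE 0.25, adjusted p = 0.00269). At end-stage it had 46.4 and 80.7 CPM against 45.9 and 46.8 CPM, which overlapped. Slc25a5 differed by -0.13 (SE 0.18, adjusted p = 0.761) and 0.09 (SE 0.15, adjusted p = 0.819), and the citrate carrier Slc25a1 by 0.05 (SE 0.22, adjusted p = 0.944) and 0.16 (SE 0.18, adjusted p = 0.716).

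In the other classes, the choline transporter Slc44a1 rose at end-stage, with 59.7 and 57.8 CPM in mutants and 21.8 and 16.3 CPM in controls (1.63, SE 0.33, adjusted p = 0.00908). Slc14a1, a urea channel, rose from 2.01 and 1.85 CPM to 17.1 and 7.81 CPM (2.69, SE 0.66, adjusted p = 0.0276). Slc24a3, an exchanger of sodium for calcium and potassium, fell from 27 and 27.9 CPM to 14.9 and 14.8 CPM (-0.89, SE 0.24, adjusted p = 0.0498). At 2 months the cation-chloride cotransporter family members Slc12a4, which exports potassium with chloride, and Slc12a9 rose by 1.02 (SE 0.28, adjusted p = 0.0402) and 0.81 (SE 0.22, adjusted p = 0.0371). Slc22a17, a receptor for lipocalin-2, fell (-0.67, SE 0.19, adjusted p = 0.0498), and the scaffold protein Slc9a3r1 rose (0.59, SE 0.17, adjusted p = 0.0462). At end-stage Slc22a17 went the other way, with means of 168 CPM in mutants and 141 CPM in controls. Its genotype by stage interaction was 0.91 (SE 0.3, adjusted p = 0.299), which did not pass. None of the 8 carriers of nucleosides and nucleotide sugars, the 13 proton and bicarbonate carriers or the 4 vesicular and lysosomal anion carriers passed at either stage by this test.

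**Figure D4:**
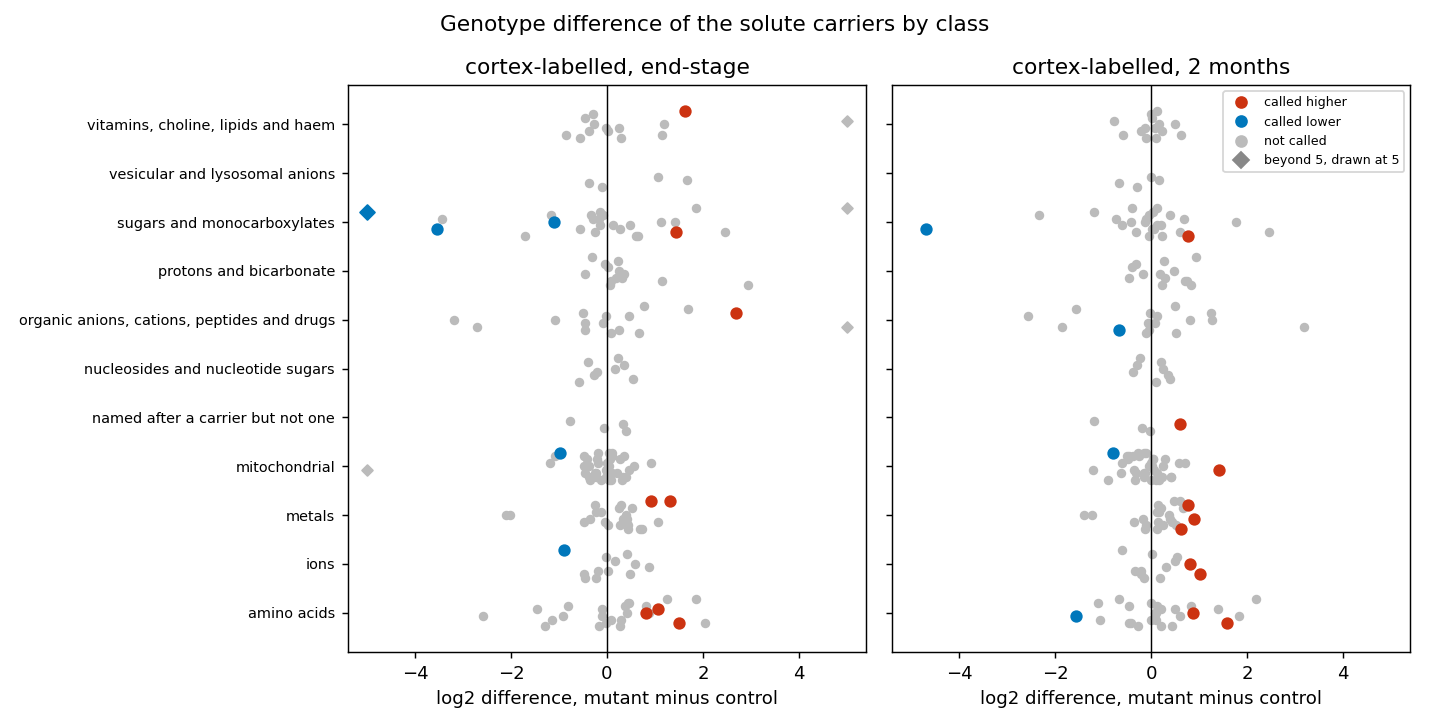
Log2 difference of mutant over control for every member in cortex-labelled libraries, by class, at end-stage (left) and 2 months (right); red and blue points were called higher and lower, grey points were not called and diamonds lie beyond the axis. Called amino acid and metal carriers lie right of 0, except Slc36a2 at 2 months.

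These cortex-labelled results rest on few mice and on the reading of the labels. By the sample record no member was called at 2 months and 12 of the 14 members changed sign, with values given under the processing alternatives, and end-stage calls fell from 13 to 2 (Slc38a1 and Slc44a1), since the groups share 1 estimate of the spread. Without the 4 mice whose genotype differs between readings, 4 members were called at end-stage and 0 at 2 months, where only M2624 as mutant and M2629 as control were left, so that this 0 says nothing about the reading. No end-stage call was kept without M1375, the control with no Cre, and most were lost without M1521, M1376 or M1524. Each of these fits left 1 library in a group. Leaving out any of these 4 mice ended the end-stage call of Slc1a5, Slc7a6, Slc2a10, Slc16a10, Slc24a3 and Slc39a4, while the differences stayed at 1.38 to 1.63 for Slc1a5 and 0.67 to 0.98 for Slc7a6. Slc38a1 lost its call without M1375 or M1524 and Slc44a1 without M1375 or M1521. Slc24a3 was kept in 2 and Slc39a4 in 3 of the 10 fits that leave out 1 mouse, so these 2 and Slc5a10 were the end-stage calls kept least often. At 2 months Slc1a5, Slc7a6, Slc5a10 and Slc25a22 stayed called without each of the 10 mice in turn, whereas Slc45a4 was kept in 2 of the 10 fits, Slc11a1 and Slc9a3r1 in 3 and Slc39a3 in 4.

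Markers of other cells moved with genotype too. The summed microglial markers were 43000 to 51100 CPM in end-stage cortex-labelled mutants and 60100 to 61800 CPM in controls, and 5 of the 10 fell (3 of 10 at 2 months). The sum of 5 monocyte markers was 116 to 167 CPM in 2-month mutants and 20.8 to 32.6 CPM in controls, and 87.1 to 117 against 18.6 to 24 CPM at end-stage. Of these, Ms4a6c and Plac8 rose at 2 months and Ms4a6c at end-stage, while Chil3, Ly6c2 and Ccr2 reached at most 1.48, 1.13 and 10.1 CPM. The sum of 8 endothelial and pericyte markers was 178 to 230 against 30.9 to 45.6 CPM at 2 months, from Flt1, Kdr and Ly6a, with Cldn5 at most 0.41 CPM and Vtn at most 0.595 CPM. At end-stage this sum was 42.1 to 84.6 against 45.9 to 53.7 CPM, where Flt1 and Kdr rose and Pecam1 fell. The sum of 5 markers of oligodendrocyte precursors was 37.3 to 88.7 CPM in end-stage mutants and 3.18 to 5.82 CPM in controls, nearly all of it Cspg4, with Pdgfra at most 0.273 CPM. The sum of 5 markers of B and plasma cells, nearly all Cd79b, was 12.2 to 16.5 against 47.2 to 66.7 CPM at end-stage and 17.2 to 32.4 against 43.4 to 70.2 CPM at 2 months. By mouse number, the monocyte and B cell sums separated the cortex-labelled groups in the same direction at 2 months and at end-stage, where genotypes are not in conflict. The endothelial sum separated them at 2 months only and the oligodendrocyte precursor sum at end-stage only. In brainstem-labelled libraries at 2 months the monocyte sums overlapped (24.1 to 39.3 CPM in mutants, 26.2 to 39.2 CPM in controls). The B cell sums there did not (20.7 to 29.5 against 51.3 to 78.4 CPM). Which reading of the 2-month genotypes holds was not tested. Apart from the microglial, monocyte, endothelial and pericyte markers above, Gfap (astrocytes) and Cspg4 (oligodendrocyte precursors) were called higher at end-stage in cortex-labelled libraries. Klrd1 (T and NK cells) and Cd79b (B cells) were called lower there, the last also at 2 months. No marker of border-associated macrophages, neutrophils, oligodendrocytes, neurons or erythroid cells was called in either of the 2 cortex-labelled comparisons. The part of any of these in the carriers' differences was not tested.

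In brainstem-labelled libraries no member was called by genotype. At end-stage 0.151% of all genes were called, 26 members (14.2%) and 10.4% of all genes had an unadjusted p under 0.05, and limma-voom called 0 and DESeq2 7. At 2 months 0.0362% of all genes were called, 15 members (8.2%) and 8.8% of all genes had an unadjusted p under 0.05, and limma-voom called 0 and DESeq2 1. The share of all genes called by limma-voom and DESeq2 is not given, so their counts are not a result about the members. The smallest end-stage p belonged to Slc16a6, at 91.2 and 163 CPM in mutants and 273 and 276 CPM in controls (-1.11, SE 0.24, adjusted p = 0.0698). Slc14a1 had 27.1 and 12.2 CPM against 1.47 and 3.84 CPM (2.88, SE 0.65, adjusted p = 0.0793) and at 2 months 9.43, 5.85 and 7.34 CPM against 1.02, 1.7 and 2.45 CPM (2.12, SE 0.52, adjusted p = 0.171). Slc25a37 had 30.7 and 35.7 CPM against 64.9 and 58.9 CPM at end-stage (-0.90, SE 0.22, adjusted p = 0.0932). These 3 lay outside the control range in both end-stage mutants, where the groups did not overlap in 44.3% of the members and 39% of all genes. So did Slc1a5, with means of 16.9 against 6.14 CPM (1.46, SE 0.36, adjusted p = 0.104). The same held for Slc7a6, with means of 27.7 against 15.8 CPM (0.81, SE 0.21, adjusted p = 0.107). At 2 months these 2 differed by 0.23 (SE 0.29, adjusted p = 0.865) and 0.31 (SE 0.17, adjusted p = 0.635).

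Whether the genotype difference itself depended on region label or stage was tested as an interaction, and no member was called. At end-stage the interaction with region label called 0.0844% of all genes, 12 members (6.56%) and 5.31% of all genes had an unadjusted p under 0.05, and limma-voom and DESeq2 both called 0. At 2 months it called 0.0241% of all genes and 20 members (10.9%) and 8.32% of all genes had an unadjusted p under 0.05, and limma-voom called 0 and DESeq2 1, Slc11a1 (0.90, SE 0.24, adjusted p = 0.283 by edgeR). With the mouse as a replicate block, which uses that both libraries come from 1 animal, 1 member was called in each, Slc2a5 at end-stage and Slc11a1 at 2 months. The interaction of Slc1a5 with region label was 0.05 (SE 0.51, adjusted p = 1) at end-stage and 1.35 (SE 0.41, adjusted p = 0.348) at 2 months. The interaction with stage called 0.265% of all genes in cortex-labelled libraries, where 25 members (13.7%) and 9.91% of all genes had an unadjusted p under 0.05, limma-voom called 0 and DESeq2 4. In brainstem-labelled libraries it called 0.00603% of all genes, and 9 members (4.92%) and 4.42% of all genes had an unadjusted p under 0.05. There limma-voom and DESeq2 called 0. For these interactions the share of all genes called by limma-voom, DESeq2 and the replicate block fit is not given. Their counts are therefore not a result about the members.

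Region label was compared within genotype over both stages, with 5 mice each. In controls, 3 members were higher in cortex-labelled libraries (0.53% of all genes were) and 1 was lower (0.235%). In mutants, 18 were higher (9.84%, where 5.65% of all genes were) and 8 lower (4.37%, where 4.79% were). These fits treat the 2 libraries of a mouse as separate samples. With the mouse as a replicate block, 9 members were called in controls (3.13% of all genes) and 42 in mutants (14.3%). The 4 called in controls were all called in mutants in the same direction: Slc1a5, Slc2a6, Slc38a2 and Slc39a12.

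Agreement over all 10 mice, given below for some members, also occurred in members not called for region label. Slc7a1, Slc25a38 and Slc18a1 were higher and Slc33a1 and Slc7a7 lower in the cortex-labelled library of every mouse. The share of all genes with such agreement is not given. Of the 2 libraries of a mouse, the cortex-labelled one had more Slc1a5 in 10 of 10 mice. Its mean was 16.1 ± 3.27 against 6.84 ± 1.55 CPM in controls (SD, n = 5; log2 difference 1.3, SE 0.23, adjusted p = 0.0129) and 47.1 ± 7.54 against 11.9 ± 6.69 CPM in mutants (2.00, SE 0.23, adjusted p = 4.52e-05). Slc2a6 was also higher in 10 of 10 mice, at 10.9 ± 3.42 against 1.2 ± 1.33 CPM in controls (3.16, SE 0.71, adjusted p = 0.0459) and 59.8 ± 20.5 against 3.61 ± 3.21 CPM in mutants (4.09, SE 0.70, adjusted p = 0.00124). The glutamine and alanine importer Slc38a2 had 139 ± 28 against 89.8 ± 4.4 CPM in controls (0.56, SE 0.11, adjusted p = 0.0186) and 155 ± 11.3 against 99.1 ± 10.7 CPM in mutants (0.64, SE 0.11, adjusted p = 0.00111). The zinc transporter Slc39a12 went the other way in every mouse, at 6.84 ± 4.51 against 22 ± 3.1 CPM in controls (-1.64, SE 0.37, adjusted p = 0.0472) and 2.05 ± 0.868 against 14.5 ± 2.42 CPM in mutants (-2.82, SE 0.40, adjusted p = 0.000239).

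**Figure D5:**
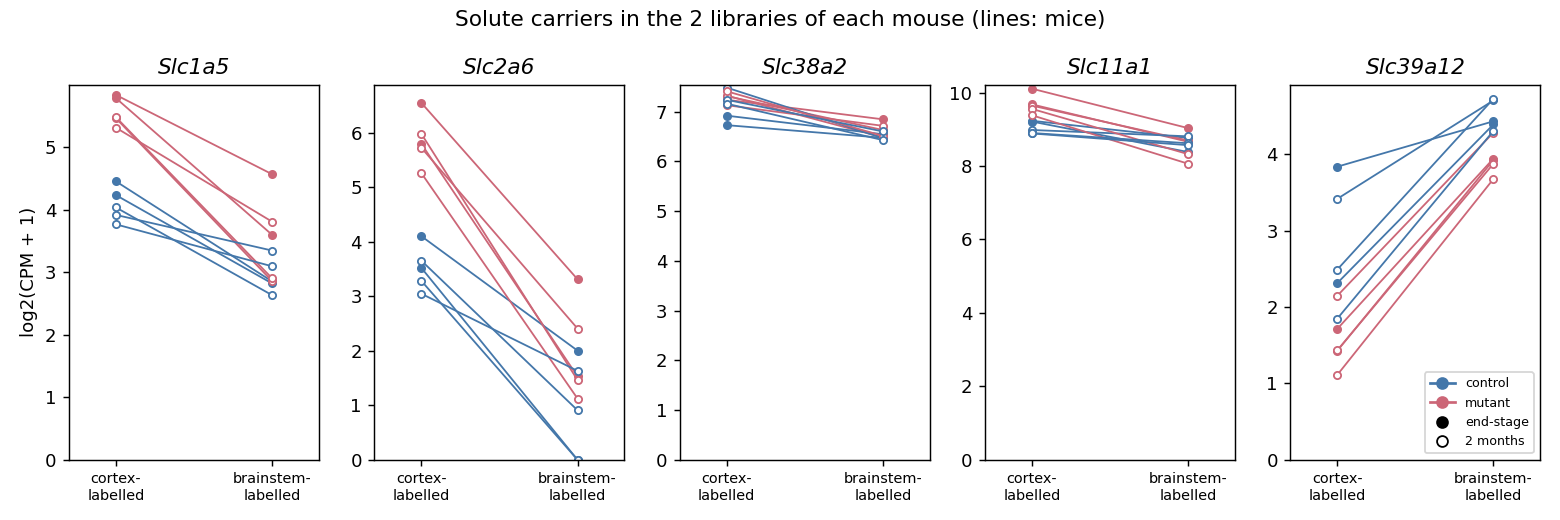
Log2(CPM + 1) of 5 carriers in the cortex-labelled and brainstem-labelled library of each of 10 mice, 1 line per mouse; blue is control, red is mutant, filled points are end-stage and open points 2 months. Slc1a5, Slc2a6, Slc38a2 and Slc11a1 fall from left to right in 10 of 10 mice and Slc39a12 rises in all 10. Such agreement also occurred in members not called for region label.

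In mutants, Slc5a10 was lower in cortex-labelled libraries, at 0.229 ± 0.179 against 3.99 ± 1.11 CPM (SD, n = 5; -4.04, SE 0.61, adjusted p = 0.000455), and it was lower there in all 10 mice. Slc40a1 was lower too, at 98.5 ± 61.6 against 247 ± 86.8 CPM (-1.40, SE 0.36, adjusted p = 0.0186), as was Slc36a2 (-1.08, SE 0.26, adjusted p = 0.0115). Slc11a1 was higher, at 827 ± 165 against 384 ± 97.9 CPM (1.10, SE 0.13, adjusted p = 6.77e-05). Slc6a9, a glycine transporter, was higher at 5.07 ± 2.17 against 0.578 ± 0.366 CPM (2.89, SE 0.73, adjusted p = 0.0172), though 27.8% of its exon bases lie within exons of Ccdc24 on the other strand. Slc16a10 was higher by 1.17 (SE 0.23, adjusted p = 0.0031), the taurine transporter Slc6a6 by 0.72 (SE 0.14, adjusted p = 0.00271), the lactate and pyruvate transporter Slc16a1 by 0.65 (SE 0.17, adjusted p = 0.0225) and the urate and sugar transporter Slc2a9 by 1.13 (SE 0.35, adjusted p = 0.0487). By class, 5 of 25 amino acid carriers were higher and 1 lower, 4 of 23 metal carriers higher and 2 lower, and 1 of 39 mitochondrial carriers higher. Among the amino acid stress genes, 4 of 14 were higher (Asns, Cebpb, Mthfd2 and Nupr1) and 2 lower (Ddit4 and Phgdh).

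The region result depended on the mice kept and on the reading of the 2-month genotypes. By the sample record, 3 members were called in controls and 9 in mutants, and without the 4 mice in conflict 0 and 5. Slc1a5, Slc2a6, Slc39a12, Slc5a10 and Slc16a10 stayed called in mutants without each mouse in turn. The counts that follow are of all members called in each fit, including any not called with all mice. The 4 calls in controls fell to 0 without M1375, to 1 without M1521 or M2618, and to 2 without M2617, M2624 or M2629, and the 26 in mutants fell to 12 without M1376 and 16 without M1524. The summed level of 6 astrocyte markers was 6.72 to 34.3 CPM under the cortex label and 0.714 to 9 CPM under the brainstem label, with Aqp4 at most 0.643 CPM. In mutants, the sum of 5 monocyte markers was 87.1 to 167 CPM under the cortex label and 18.5 to 64.3 CPM under the brainstem label, and that of 5 markers of oligodendrocyte precursors at end-stage 37.3 to 88.7 against 2.87 to 3 CPM. The part of these in the carriers' differences was not tested.

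Stage was compared within genotype, end-stage against 2 months. In controls no member and 0% of all genes were called under either region label. There, 15 members (8.2%, and 8.63% of all genes) under the cortex label and 9 (4.92%, and 8.24% of all genes) under the brainstem label had an unadjusted p under 0.05, limma-voom called 0 and DESeq2 1 in each. In cortex-labelled mutants 3 members were higher at end-stage (0.735% of all genes were) and 1 was lower (1.1%). limma-voom called 10 there and DESeq2 16. The share of all genes called by those tools is not given for controls or mutants, so their counts are not a result about the members. Slc39a4 had 74.6 and 42.4 CPM at end-stage and 9.29, 17.2 and 8.96 CPM at 2 months (2.31, SE 0.32, adjusted p = 0.00118). Slc22a17 had 183 and 153 CPM against 84.7, 81.5 and 56.1 CPM (1.18, SE 0.21, adjusted p = 0.0064), and the creatine transporter Slc6a8 had 4.52 and 2.93 CPM against 1.28, 0.666 and 0.618 CPM (2.12, SE 0.50, adjusted p = 0.0389). The neutral amino acid transporter Slc43a1 was lower, with 0 and 0.52 CPM against 3.79, 5.28 and 4.68 CPM (-4.16, SE 0.94, adjusted p = 0.0313). In each of these 4 the stages did not overlap, as in 30.6% of the members and 29.8% of all genes. Slc39a4 was also higher at end-stage in cortex-labelled controls, with means of 23.4 against 8.5 CPM. That difference had the smallest p of the members there but did not pass (1.46, SE 0.32, adjusted p = 0.318). Its genotype by stage interaction was 0.84 (SE 0.46, adjusted p = 0.558), which did not pass. With 2 or 3 mice in a group, this cannot show that the rises in mutants and controls are alike.

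In cortex-labelled mutants Slc39a4 stayed called without each mouse in turn, whereas Slc6a8 was kept in 1, Slc43a1 in 6 and Slc22a17 in 9 of the 10 fits that leave out 1 mouse. The count of 4 fell to 2 without M1376, M2621, M2624 or M2629 and to 0 without the 4 mice in conflict, which leaves 1 mutant mouse at 2 months. In brainstem-labelled mutants no member and 0.0422% of all genes were called, 21 members (11.5%) and 10.3% of all genes had an unadjusted p under 0.05, and limma-voom called 0 and DESeq2 4. The share of all genes that those tools called there is not given. Markers of other cells also differed between the stages in cortex-labelled mutants. At end-stage against 2 months, the sum of 5 markers of oligodendrocyte precursors was 37.3 to 88.7 against 1.04 to 2.68 CPM, of 8 endothelial and pericyte markers 42.1 to 84.6 against 178 to 230 CPM, and of 10 microglial markers 43000 to 51100 against 55900 to 59400 CPM. Their part in the stage differences was not tested. The 2 stages are different mice, so stage and differences between those mice cannot be told apart.

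The carrier with the smallest genotype p was Slc5a10. Over the 20 libraries the members most like it in log2 CPM were Slc36a2 (Pearson's r 0.88), Slc16a9 (0.83) and Slc40a1 (0.82). Those most like Slc1a5, a gene chosen after its values were seen, were Slc2a6 (0.94), Slc11a1 (0.92) and Slc7a6 (0.91). These are descriptions over libraries that share mice, groups and depth.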

How the data were processed

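For the 20 libraries the authors deposited raw counts, 1 per gene and library, that were not normalized. RNA was amplified over 12 cycles and libraries over 8 cycles, per the labels' protocols. FastQC, Subread, edgeR and build mm10 are named, per the submitters' processing notes. Their annotation, strand setting and handling of reads with several matches: not given in the sources used here. Of 55487 identifiers, 55394 matched a symbol in GENCODE M21 (GRCm38), and the rest held 0.00123% of counts.

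Counts were tested with edgeR 4.0.16 (R 4.3.3): filterByExpr, TMM factors, 1 quasi-likelihood model of 8 groups, 14 comparisons, and Benjamini-Hochberg adjustment over 16595 genes, which every adjusted p in the text refers to unless another tool is named. Each SE was derived from a log2 difference and its F statistic. limma 3.58.1 and DESeq2 1.42.0 were alternatives, and the fit was tested on simulated data.

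The members, lists and comparisons were chosen with earlier results of these data known. Genes were named by a rule: members called by genotype, the 4 largest rises and falls called elsewhere, the 12 highest levels, class leaders and carriers known in macrophages. Each mouse gave both of its libraries. The deviations of the 2 libraries from their group means correlated at 0.139 to 0.407. Libraries of different mice were not compared in this way, so these values cannot show that a pair shares an animal. The pairing rests on the mouse number alone. The labels name separate mice, and no mouse occurs more than once within a group. The quasi-likelihood model has no term for the mouse, so all libraries enter its estimate of the spread as separate samples. Its errors are therefore between libraries. For region label and its interaction with genotype they leave out the pairing, except where the mouse is named as a replicate block. Reads carry no molecular identifiers, so limits for a count of 0 cover counting error only. Promoter sequences come from RefSeq (GRCm38.p6). A few genes of the marker lists are not reported here.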

Additional observations from a re-analysis of the deposited data

How the results depend on the processing

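The number of members held within 1.5 times at 2 CPM (171) and 0.5 CPM (194). Counts of called members moved most as follows. The share of all genes called under each setting is not given in this section. A higher or lower count is therefore not a result about the members. Without the filter on low counts they were 27 (end-stage) and 22 (2 months) for genotype in cortex-labelled libraries, 8 and 5 in brainstem-labelled libraries, 4 and 3 for genotype by region label, 8 for genotype by stage in cortex-labelled libraries, 15 for region label in controls, 2 and 1 for stage in control cortex-labelled and brainstem-labelled libraries, and 17 and 8 for stage in mutants. DESeq2 gave 25 and 21, 7 and 1, 1 for genotype by region label at 2 months, 4 for genotype by stage in cortex-labelled libraries, 16 for region label in controls, 1 and 1, and 16 and 4 in the same order. limma-voom gave 10 for stage in cortex-labelled mutants. With the sample record's genotypes, counts were 2 (end-stage cortex-labelled), 0 (2-month cortex-labelled) and 9 (region label in mutants). Without the 4 mice in conflict they were 4, 0, 0 (region label in controls), 5 (in mutants) and 0 (stage in cortex-labelled mutants). With only the groups compared, region label in controls gave 1. With the mouse as a replicate block, region label gave 9 in controls and 42 in mutants, and genotype by region label 1 at each stage.

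Leaving out each mouse in turn gave 0 to 13 members for genotype in end-stage cortex-labelled libraries, 0 to 1 in end-stage brainstem-labelled libraries, 5 to 17 in 2-month cortex-labelled libraries, 0 to 1 for genotype by stage in cortex-labelled libraries, 0 to 4 for region label in controls, 12 to 28 in mutants, and 2 to 4 for stage in cortex-labelled mutants. Where a group was left with 1 library, that library is assumed to vary like the other groups. By the sample record, the 2-month cortex-labelled differences that changed sign were -0.30 for Slc11a1, -0.05 for Slc12a9, -0.42 for Slc1a5, -0.44 for Slc25a22, -0.33 for Slc12a4, -0.35 for Slc7a6, 0.72 for Slc36a2, 2.83 for Slc5a10, -0.57 for Slc39a11, -0.16 for Slc9a3r1, 0.45 for Slc25a37 and -0.06 for Slc45a4, each with adjusted p = 1. The cause was not tested. Groups of 2 or 3 mice and, for Slc2a10, Slc5a10 and Slc43a1, few counts per library limit precision.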
